A study of Mus musculus with 2 samples.

Results

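Solute carriers were followed across the cell classes of the adult mouse mammary epithelium. They were selected on their symbol, Slc followed by a digit, and on a measured value, 50 or more counts summed over all cells of the total epithelial library. Of 373 such symbols in the gene list, 144 met that minimum, 129 had 1 to 49 counts and 100 had none, in a table of 27998 genes of which 9130 reached 50 counts. Among these 144 members, 4 (Slc9a3r1, Slc9a3r2, Slc4a1ap and Slc7a6os) carry the name but encode scaffold or associated proteins and not carriers. At the limit, Slc39a8 with 50 counts and Slc39a4 with 51 were inside, and Slc22a23 and Slc7a6 with 49 each were outside.

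The 2 libraries came from mammary glands of untreated adult FVB/NJ mice, an inbred strain, at 10 weeks of age, each from cells pooled from 4 mice. The first held sorted basal cells (Lin-CD29hiCD24+) and the second total epithelial cells (Lin-CD24+), where the Lin- gate removes blood and endothelial cells. Each was captured once by 10X Chromium, a droplet method that tags the RNA of every cell with a common barcode and counts each tagged molecule once at its 3′ end. There was 1 library per sort, so no difference below has a replicate check and no p-value is given. All intervals are exact 95% intervals for counting error only, which leave out the spread between mice and between libraries. Those of levels and ratios also leave out the spread between cells. They are too narrow where a few cells hold most counts of a gene.

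In total epithelium 3302 cells gave 9227651 counts, a median of 2425.5 per cell, and 4771 sorted basal cells gave 2488704 counts, a median of 487. The libraries shared 28 cell barcodes. Cells of the total epithelial library were split by marker counts. Basal cells had 10 or more counts of Krt5, Krt14 and Acta2 summed (1280 cells), mature luminal (ML) cells had 10 or more of Prlr, Stc2 and Gpx3 (1133 cells), and luminal progenitor (LP) cells were the others with 3 or more of the luminal keratins Krt8, Krt18 and Krt19 (766 cells). A further 26 cells met both the basal and the ML rule and were set apart, and 97 met none. Markers that the split did not use were each highest in their own class, for 7 of 7 basal, 8 of 8 LP and 6 of 6 ML genes. As a median over those markers, LP genes stood in ML cells at 10.2% of their LP level and ML genes in LP cells at 13.7% of their ML level. Basal genes stood at 0.605% in LP cells and 0.407% in ML cells. The ML class also held 1419 CPM (counts scaled to a common total per class) of 6 fibroblast markers summed, against 358 in basal and 83.4 in LP cells. Most of these counts were of Dcn, and the part of such RNA in the values below was not measured. An alternative given further below left out cells with 2 or more stromal marker counts, which kept 816 of the 1133 ML cells.

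Solute carriers are membrane proteins that move amino acids, sugars, ions, metals, nucleosides, vitamins and metabolites across the plasma membrane and the membranes of organelles. Some couple the substrate to the sodium or proton gradient, others exchange one solute for another, and the Slc25 family spans the inner mitochondrial membrane. In the mammary gland, basal cells contract around the ducts and alveoli. Luminal cells line the lumen, LP cells being the alveolar-type precursors and ML cells the hormone-sensing cells that carry the estrogen and prolactin receptors.

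Promoter sequences are shown for 2 members with a large class difference per class, because these are the genes on which the comparison of classes turns. Each is the 250 bases upstream of the RefSeq start on GRCm38.p6, read 5′ to 3′ on the strand of the gene, with CG dinucleotides in capitals. Slc27a3 (chr3:90389939-90390188, minus strand) and Slc12a4 (chr8:105966116-105966365, minus strand) were highest in basal cells. Slc13a2 (chr11:78422235-78422484, minus strand) and Slc28a3 (chr13:58610878-58611127, minus strand) were highest in LP cells, and Slc16a4 (chr3:107290980-107291229, plus strand) and Slc5a5 (chr8:70892758-70893007, minus strand) in ML cells.
Slc27a3: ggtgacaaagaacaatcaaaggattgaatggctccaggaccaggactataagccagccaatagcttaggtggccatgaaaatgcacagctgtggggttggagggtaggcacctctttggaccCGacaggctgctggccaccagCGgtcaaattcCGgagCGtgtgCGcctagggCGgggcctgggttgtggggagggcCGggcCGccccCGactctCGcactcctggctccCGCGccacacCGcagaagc
Slc12a4: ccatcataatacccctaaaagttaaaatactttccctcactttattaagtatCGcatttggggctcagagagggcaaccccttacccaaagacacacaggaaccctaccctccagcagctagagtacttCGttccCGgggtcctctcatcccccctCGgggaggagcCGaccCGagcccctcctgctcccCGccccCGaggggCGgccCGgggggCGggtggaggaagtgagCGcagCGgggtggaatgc
Slc13a2: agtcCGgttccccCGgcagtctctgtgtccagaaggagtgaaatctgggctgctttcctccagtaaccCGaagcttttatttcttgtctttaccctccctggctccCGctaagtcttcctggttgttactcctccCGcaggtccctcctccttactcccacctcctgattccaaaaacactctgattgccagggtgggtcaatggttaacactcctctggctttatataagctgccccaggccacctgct
Slc28a3: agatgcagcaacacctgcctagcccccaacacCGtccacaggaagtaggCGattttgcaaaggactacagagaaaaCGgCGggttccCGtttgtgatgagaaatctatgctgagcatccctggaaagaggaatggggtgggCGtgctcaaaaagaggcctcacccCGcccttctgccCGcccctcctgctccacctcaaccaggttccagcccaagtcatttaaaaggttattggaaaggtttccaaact
Slc16a4: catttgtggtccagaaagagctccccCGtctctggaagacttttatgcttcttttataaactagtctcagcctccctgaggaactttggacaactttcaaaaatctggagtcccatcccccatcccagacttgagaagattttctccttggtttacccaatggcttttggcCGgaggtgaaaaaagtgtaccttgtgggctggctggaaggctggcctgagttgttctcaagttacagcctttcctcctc
Slc5a5: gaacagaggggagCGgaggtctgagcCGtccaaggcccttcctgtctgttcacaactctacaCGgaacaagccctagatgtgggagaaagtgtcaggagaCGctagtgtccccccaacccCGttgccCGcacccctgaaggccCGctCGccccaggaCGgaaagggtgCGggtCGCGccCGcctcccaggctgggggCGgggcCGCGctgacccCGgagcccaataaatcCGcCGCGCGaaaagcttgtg
The windows of Slc27a3 and Slc12a4 each held 13 CG dinucleotides, that of Slc13a2 held 5, that of Slc28a3 held 8, that of Slc16a4 held 2 and that of Slc5a5 held 21. The median over 27025 RefSeq promoters was 6 in the same 250 bases. Slc16a4 and Slc5a5, both highest in ML cells, lay on opposite sides of this median. Only 29.6% of promoters held as few CG dinucleotides as Slc16a4 or fewer, against 85.4% for Slc5a5. These promoters were not limited to genes detected here. In windows of 300 bases, the median was 22 over the 7034 genes with 50 or more counts that had a window. In those windows Slc5a5 held 29, Slc27a3 and Slc12a4 held 20 each, Slc13a2 and Slc28a3 held 8 each and Slc16a4 held 3.

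Summed over all 144 members, carriers took a similar part of the RNA in each class. Levels are given as CPM. These are molecule counts at the 3′ end and carry no term for transcript length. The summed level was 10200 CPM (10079 to 10323) in basal, 9284 (9156 to 9413) in LP cells and 10138 (10041 to 10236) in ML cells. The order of these sums was not stable. The ratio of basal to LP cells was 1.10 by CPM and 0.963 with factors from the trimmed mean of M values (TMM), and that of basal to ML cells was 1.01 by CPM and 0.571 as counts per cell. Slc25a5, Slc25a4 and Slc25a3, which exchange ADP for ATP or import phosphate in mitochondria, held 38.8% of the member counts of the 3 classes pooled. Without these 3 genes the sums were 5104 CPM in basal, 6395 in LP cells and 6559 in ML cells.

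A member was called higher in a class when its CPM was at least 2 times that in each of the other classes and the counting intervals of both ratios lay above 1. By this rule 21 of 144 members (14.6%) were higher in basal cells, where 12% of all 9130 genes were, and 12 (8.33%) were higher in LP cells, where 4.1% of all genes were. In ML cells 27 members (18.8%) were higher, against 8.29% of all genes. Lower than both other classes were 20 members in basal cells (13.9%, against 8.41% of all genes), 5 in LP cells (3.47% against 4.59%) and 11 in ML cells (7.64% against 5.41%). The count of lower members was added after values were seen. A member may be higher in 1 class and lower in another, and 68 members (47.2%) were in none of the 6 patterns, against 64.3% of all genes. Between pairs of classes, 28 members (19.4%) were at least 2-fold higher in basal than in LP cells, against 19.1% of all genes, and 30 (20.8%) the reverse, against 12.4%. Basal cells exceeded ML cells for 31 members (21.5%, against 18.2% of all genes) and ML exceeded basal cells for 44 (30.6% against 18.8%). LP cells exceeded ML cells for 23 members (16% against 9.9%) and ML exceeded LP cells for 35 (24.3% against 15.5%). As medians over genes, the log2 ratio of basal to LP cells was -0.07 for the members and 0.18 for all genes, that of basal to ML cells was -0.34 and -0.05, and that of LP to ML cells was -0.43 and -0.26.

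**Figure D1:**
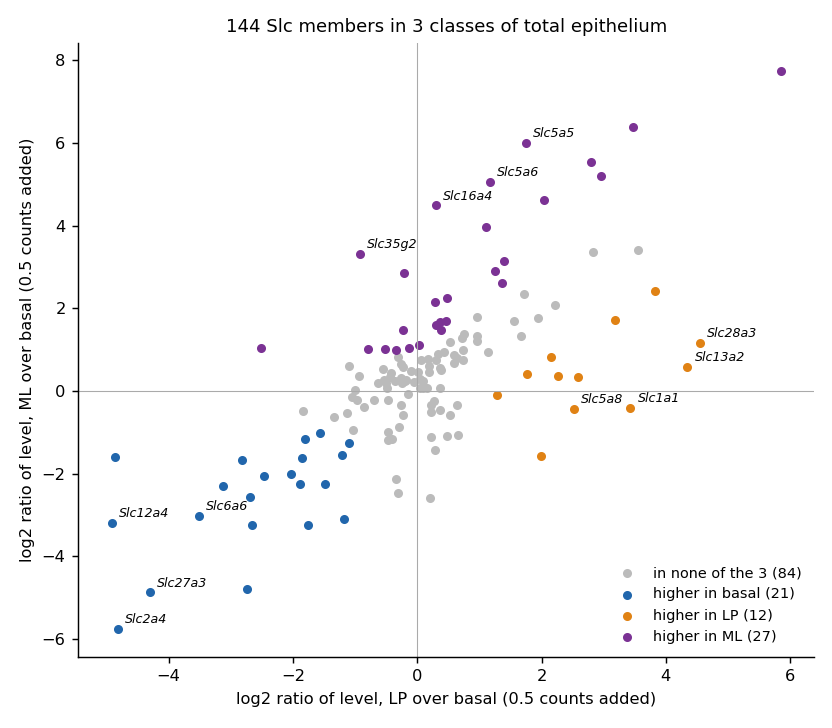
Log2 ratio of level in LP over basal cells (x axis) against ML over basal cells (y axis) for the 144 members, 1 point per gene with 0.5 counts added, coloured by the class in which a gene was at least 2-fold higher. The 21 basal genes lie at lower left, the 27 ML genes toward the top and the 12 LP genes to the right, and 84 genes were higher in no class.

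Members higher in each class were counted by transport family, beside 14.6% for basal, 8.33% for LP and 18.8% for ML cells over all members. The differences between families were not tested. Of 16 genes listed as amino acid carriers, 7 were higher in basal, 2 in LP cells and 3 in ML cells, and their sum was 1754 CPM in basal, 1469 in LP cells and 841 in ML cells. The basal members include Slc43a3, a purine nucleobase carrier, and Slc6a8, a creatine carrier. Slc3a2 led the sum, and without it the level was 902 CPM in basal, 426 in LP cells and 522 in ML cells. Of 18 Slc35 genes listed as nucleotide sugar carriers, 6 were higher in ML and 1 in basal cells. Their sums were 532, 564 and 850 CPM in basal, LP and ML cells. The list is by symbol, and its ML genes include Slc35g2, an orphan. Of 30 Slc25 genes, which are mitochondrial carriers apart from the peroxisomal Slc25a17, 5 were higher in ML, 2 in basal and 1 in LP cells, and 19 were in none of the 6 patterns. The families of exchangers for chloride, bicarbonate, sodium and protons summed to 113 CPM in basal, 115 in LP cells and 437 in ML cells, and Slc12a2 made up 346 of the ML sum. Of the zinc carriers, 4 of 16 were higher in basal cells and 1 each in LP and ML cells, whereas their sums were 425, 383 and 443 CPM in that order of classes.

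The group of Slc2, Slc5, Slc45 and Slc50 genes, listed as hexose and sodium-glucose carriers, had higher members in every class. Of its 10 members, 1 was higher in basal, 2 in LP cells and 3 in ML cells, and its sum was 316 CPM in basal, 396 in LP cells and 814 in ML cells. The members with most counts in ML cells carry mainly other solutes or act inside the cell. Slc5a5 takes up iodide, Slc5a6 takes up biotin and pantothenate, and Slc50a1 is a sugar carrier of the Golgi.

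**Figure D2:**
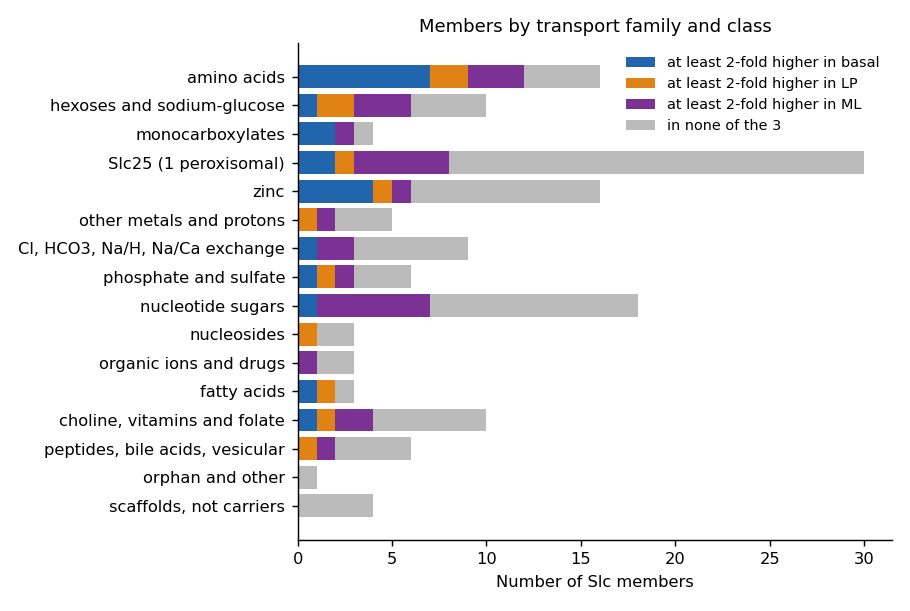
Number of members (x axis) in each transport family (y axis), split by the class in which each was at least 2-fold higher. Of the 16 genes listed as amino acid carriers 7 were higher in basal cells. Of the 18 Slc35 genes listed as nucleotide sugar carriers 6 were higher in ML cells.

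The members with the largest basal ratios were Slc2a4, Slc27a3 and Slc12a4, all of low level. Relatives of the first pair were not highest in basal cells, since Slc2a1 was at 133 CPM in LP and 114 in basal cells, and the fatty acid carrier Slc27a1 at 52.4 CPM in LP and 11.7 in basal cells. Slc2a4, the insulin-responsive glucose carrier GLUT4, was at 32.4 CPM (25.9 to 40.1) in basal cells, 0.93 in LP cells and 0.48 in ML cells, and at 58.7 CPM in the sorted basal library. Its level in LP and ML cells rested on 2 counts each, which in LP cells lay in the same cell. The ratio to LP cells was 35.0 (9.40 to 294). Slc27a3, which activates long-chain fatty acids, was at 31.7 CPM in basal, 1.39 in LP cells and 0.97 in ML cells, a ratio of 22.8 (7.54 to 113) to LP cells. Both genes were thus close to the limit of detection in the luminal classes. Slc12a4, a potassium-chloride cotransporter, was at 20.7 CPM in basal, 0.46 in LP cells and 2.18 in ML cells.

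Other named basal genes had more counts, although Slc25a4 (1825 CPM) had the most and Slc38a2, a neutral amino acid carrier, stood at 159 CPM. Slc6a6 (chr6:91684053-91759066, GRCm38), the sodium-coupled taurine carrier, was at 187 CPM (171 to 204) in basal, 16.2 in LP cells and 22.99 in ML cells, which is 8.14 times (6.52 to 10.2) the ML level, and at 391 CPM in the sorted library. Slc1a5, which exchanges glutamine and other neutral amino acids, was at 163 CPM in basal, 18.5 in LP cells and 32.9 in ML cells, a ratio of 4.96 (4.08 to 6.06). Slc43a3, a purine nucleobase carrier, was at 156 CPM in basal, 23.2 in LP cells and 5.57 in ML cells, a ratio of 6.76 (5.03 to 9.25). All 3 were higher still in the sorted library, Slc1a5 at 293 and Slc43a3 at 299.8 CPM. Slc35d1, a nucleotide sugar carrier of the endoplasmic reticulum, was 6.59 times (3.41 to 14.3) and Slc39a10, a zinc importer, 6.11 times (3.28 to 12.3) the next highest class.

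Carriers that work with a partner protein were split between classes. Slc3a2 is the heavy chain that brings the light chains of the Slc7 family, among them Slc7a5 and Slc7a7, to the cell surface. It was at 852 CPM in basal, 1043 in LP cells and 319 in ML cells, so that basal cells held 2.67 times (2.49 to 2.86) the ML level. Slc7a5, the large neutral amino acid light chain, was at 54.7 CPM in basal, 24.1 in LP cells and 6.29 in ML cells, and at 231 CPM in the sorted library. Slc7a7, another light chain, was higher in no class, at 21.9, 16.2 and 29.8 CPM in basal, LP and ML cells.

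The cationic amino acid carriers, which need no heavy chain, went to different classes. Slc7a1 was at 15.8 CPM in basal, 3.71 in LP cells and 3.87 in ML cells. Slc7a2 was at 17.7 CPM in basal, 15.3 in LP cells and 128 (118 to 140) in ML cells, a ratio of 7.24 (5.36 to 9.97) to basal cells. Slc7a4, a related gene whose substrate is not settled, was at 8.67, 23.2 and 78.4 CPM in basal, LP and ML cells. Thus Slc7a1 was highest in basal cells, and both Slc7a2 and Slc7a4 in ML cells.

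The monocarboxylate carriers, which move lactate and pyruvate with a proton, showed a basal and an ML side as well. Slc16a1 was at 38.1 CPM in basal, 13.4 in LP cells and 7.99 in ML cells. Slc16a11 was at 19.99 CPM in basal, 0.46 in LP cells and 6.53 in ML cells. Slc16a4 was at 12.6 CPM (9.40 to 16.5) in ML cells and rested on 1 count in each of basal and LP cells, a ratio of 27.2 (4.66 to 1093), with no count in the sorted library, where 3 counts are 1.21 CPM. Of the chaperones of this family, Bsg was lowest in basal cells (836 CPM, against 1661 in LP cells and 2499 in ML cells), and Emb was highest there (240 CPM, against 4.63 and 25.4).

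The LP carrier with the most counts was a nucleoside carrier. Slc28a3 (chr13:58545399-58610877, minus strand, GRCm38), which concentrates nucleosides with sodium, was at 856 CPM (818 to 896) in LP, 82.8 in ML and 36.6 in basal cells, a ratio of 10.3 (9.21 to 11.6) to ML cells, and at 34.2 CPM in the sorted library. Among LP cells its counts were uneven, since 331 of 766 cells had a count and 118 cells with 5 or more counts held 76.5% of the LP counts. Outside LP cells the counts were also held by few cells. In basal cells 6 cells with 5 or more counts held 76.3% of them, and these had a median of 51 summed LP marker counts against 3 in the class. In ML cells 24 such cells held 72.5%, with a median of 56 LP marker counts against 0 in the class. These marker counts were not scaled for depth, and the cells with 5 or more counts were deeper in every class. Their median total was 4551.5 against 1820 in basal, 5909.5 against 3403 in ML and 3560.5 against 2483.5 in LP cells. The 6 basal cells also had a median of 71 luminal keratin counts against 3 in the class.

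The other LP carriers served dicarboxylates, acidic amino acids, peptides and metals. Slc13a2, the sodium-coupled citrate and succinate carrier, was at 34.3 CPM in LP, 1.51 in basal and 2.42 in ML cells, a ratio of 14.2 (7.29 to 30.8). Slc1a1, a glutamate and aspartate carrier, was at 115 CPM in LP, 10.6 in basal and 7.99 in ML cells, a ratio of 10.9 (7.38 to 16.8). Slc15a2, which takes up small peptides with protons, was at 115 CPM in LP, 23.8 in basal and 30.5 in ML cells. All of these were below the LP level of Slc28a3. Exons of Slc1a1 overlap 4430402I18Rik on the opposite strand, which was at 11.1 CPM in LP cells. Slc39a14, which imports zinc and iron, was 4.80 times (3.70 to 6.27), Slc5a8, a sodium-coupled monocarboxylate carrier, 5.94 times (3.15 to 12.1) and Slc43a2, a neutral amino acid carrier, 4.10 times (2.11 to 8.57) the next highest class. Slc25a33, a mitochondrial pyrimidine nucleotide carrier, formed a gradient, at 342 CPM in LP, 125 in ML and 37.7 in basal cells.

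Among members higher in ML cells, the 8 with the largest ratios included Slc5a5, Slc5a6, Slc12a2 and Slc44a4. Not all carriers of such solutes were highest in ML cells. The folate carrier Slc19a1 was at 30.9 CPM in basal and 9.68 in ML cells, and the chloride cotransporter Slc12a4 was also highest in basal cells. Of the 10 genes listed for choline, vitamins and folate, 2 were higher in ML cells and 1 each in basal and LP cells. Their sums were 143, 162 and 299 CPM in basal, LP and ML cells. Slc5a5 (chr8:70882889-70892757, minus strand), the sodium-iodide symporter of thyroid and lactating breast, was at 182 CPM (169 to 195) in ML, 9.27 in LP and 2.64 in basal cells, a ratio of 19.6 (12.6 to 32.3) to LP cells. Slc5a6, the sodium-dependent multivitamin carrier, was at 258 CPM in ML, 17.1 in LP and 7.54 in basal cells, a ratio of 15.1 (10.9 to 21.5). Its exons overlap those of Atraid on the opposite strand, which was at 213, 154 and 202 CPM in basal, LP and ML cells. Slc12a2, the sodium-potassium-chloride cotransporter, had the highest ML level of these, at 346 CPM (329 to 365), against 47.3 in LP and 21.9 in basal cells. Slc44a4, a choline-like carrier, was at 78.4 CPM in ML, 10.2 in LP and 0.75 in basal cells.

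Further ML carriers lay in organelle membranes. Slc25a35, a mitochondrial carrier of unsettled substrate, was at 79.1 CPM in ML, 11.6 in LP and 1.51 in basal cells. Slc25a17, the peroxisomal carrier of coenzyme A and related cofactors, was at 525 CPM (503 to 548) in ML, 144 in LP and 117 in basal cells. Slc22a18, an organic cation carrier, had no count in basal cells, where 3 counts are 1.13 CPM, and was at 10.7 CPM in LP cells and 40.4 in ML cells. Slc35g2, an orphan of the nucleotide sugar type, was at 13.1 CPM in ML cells and rested on 3 counts in basal and 1 in LP cells, a ratio of 11.5 (3.75 to 57.8) to basal cells.

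**Figure D3:**
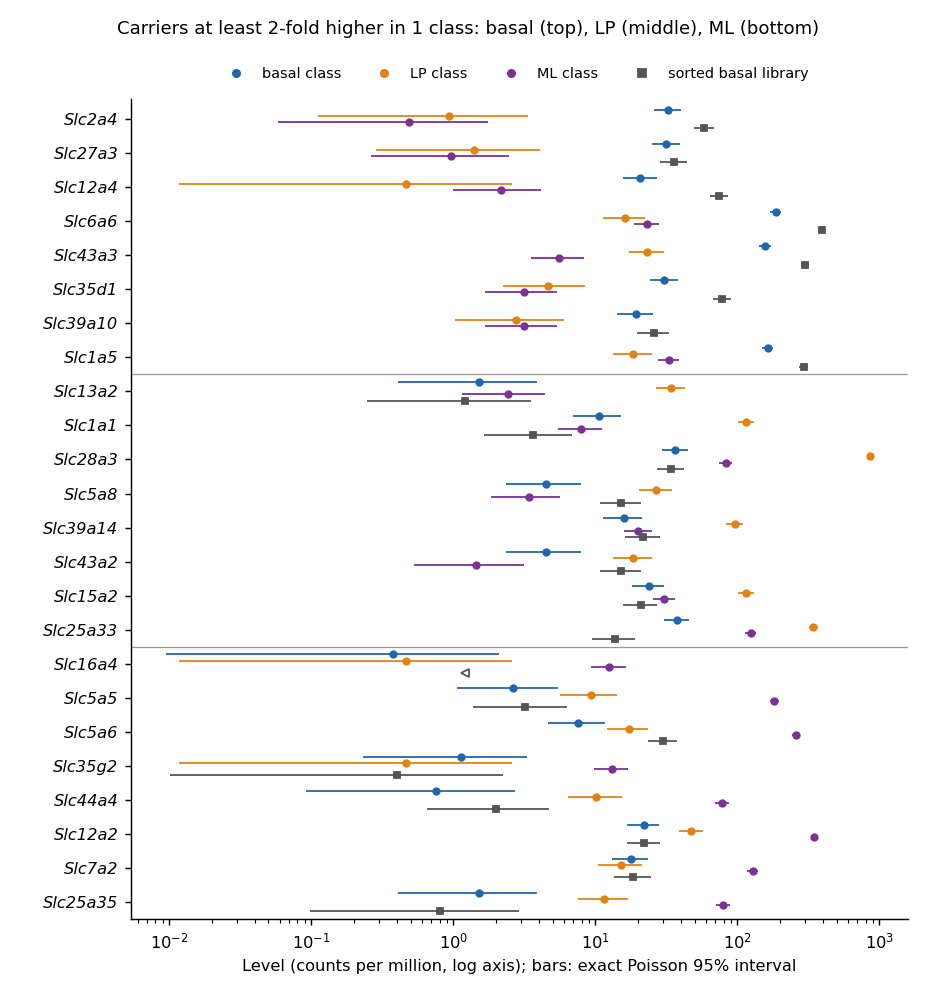
Level (x axis, CPM on a log scale) of the 8 members with the largest class ratio in basal (top), LP (middle) and ML cells (bottom). Circles stand for the 3 classes, squares for the sorted basal library, bars for exact Poisson 95% intervals and the open triangle for a count of 0. The sorted library lay above both luminal classes for all 8 basal genes, as for Slc6a6 at 391 CPM.

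Several members were low in 1 class and alike in the others. Slc37a1, a sugar phosphate exchanger, was at 1.13 CPM in basal, 15.3 in LP cells and 13.8 in ML cells. Slc25a10, the mitochondrial dicarboxylate carrier, was at 6.41, 46.8 and 68.2 CPM in that order. Slc20a1, a sodium-coupled phosphate carrier, was at 29.8 CPM in basal and 34.3 in LP but 4.84 in ML cells. These patterns set the luminal classes against basal cells for the first pair, and ML cells against the rest for the phosphate carrier. Slc2a1, the ubiquitous glucose carrier GLUT1, was likewise lower in ML cells, at 114, 133 and 52.5 CPM. Slc37a1, Slc25a10, Slc2a1, Slc19a1, Slc38a2 and Slc6a8 were chosen after their values were seen.

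The most abundant carriers ranged from even to strongly uneven. Slc25a3, the mitochondrial phosphate carrier, was at 886 CPM in basal, 918 in LP cells and 931 in ML cells, and the ratio of the highest to the lowest was 1.05 (0.998 to 1.11). Slc25a5 was at 2385, 1468 and 2059 CPM in basal, LP and ML cells. Its paralog Slc25a4, the heart and muscle type of the ADP/ATP carrier, was at 1825 CPM in basal, 503 in LP cells and 589 in ML cells, 3.10 times (2.95 to 3.25) the ML level. The sequences of this pair are alike, so counting may have split or dropped shared reads. Other even members were Slc25a51, with levels from 66.4 to 73.7 CPM, and Slc25a20, from 33.9 to 40.4 CPM.

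The share of cells with a count was compared at equal depth, since the classes differed in median counts per cell (1820 in basal, 2483.5 in LP cells and 3403 in ML cells). Every cell was thinned to 1500 counts, which left 876 basal, 620 LP and 1051 ML cells and left out 404, 146 and 82. Slc28a3 was then seen in 38.4% of LP, 4.09% of ML and 1.14% of basal cells (43.2%, 6.80% and 1.33% before thinning). Slc12a2 was seen in 35.8% of ML, 4.68% of LP and 3.20% of basal cells (57.8%, 9.01% and 3.91% before). Slc6a6 was seen in 23.2% of basal, 2.58% of LP cells and 3.14% of ML cells (27.9%, 3.92% and 7.24% before). These 3 carriers were thus seen in a minority of the cells of their own class at this depth. The part of free RNA in the low shares of the other classes was not tested.

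**Figure D4:**
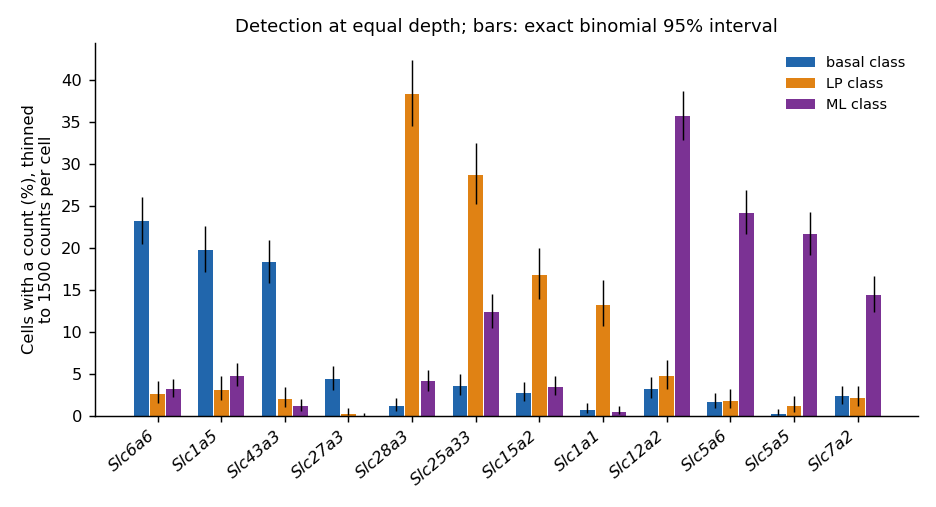
Share of cells with a count (y axis, percent) of 12 members after every cell was thinned to 1500 counts, in basal, LP and ML cells, with exact binomial 95% intervals. Slc28a3 stood out in LP cells at 38.4% and Slc12a2 in ML cells at 35.8%.

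The sorted basal library, which played no part in choosing the members, was set beside the classes. All its cells were summed, because at a median of 487 counts only 1757 of 4771 met the basal rule, and sort, depth and library cannot be told apart. Of the 21 members higher in basal cells, 20 (95.2%) lay above both LP and ML levels in the sorted library, against 97.4% of the 1095 genes higher in basal cells. Their median ratio to the basal class was 1.95, against 1.503 for those genes, 1.71 for the members higher in ML cells and 1.55 for the members higher in no class. The exception was Slc25a4, at 575 CPM in the sorted library against 1825 in the basal class and 589 in ML cells. Of the 12 LP genes, 11 (91.7%) lay below their LP level in the sorted library, against 93.6% of all LP genes, and of the 27 ML genes 24 (88.9%) lay below their ML level, against 92.2%. These shares are near those over all genes. Above the basal class lay 6 of the 12 (50%), against 54.5% of all LP genes, and 19 of the 27 (70.4%), against 53.0% of all ML genes. The basal class was the nearest class for 5 of the 12 and 11 of the 27, for which no share over all genes was computed.

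Over all members, 80 of 144 (55.6%) were within 2-fold of the basal class, against 56.5% of all genes. In the sorted library 48 (33.3%) were at least 2-fold higher, against 24.3% of all genes, and 10 (6.94%) at least 2-fold lower, against 16.4%. The median log2 ratio was 0.65 for the members and 0.34 for all genes. Across the 144 genes, the Spearman correlation of levels in the sorted library was 0.850 with the basal class, 0.464 with LP and 0.292 with ML cells. These points are genes of the same libraries and not replicates. The 30 Slc25 genes summed to 2844 CPM in the sorted library against 5853 in the basal class, and this lower sum came from Slc25a3, Slc25a4 and Slc25a5. The other 27 summed to 898 against 756 CPM, and 15 of the 30 were above their basal class level. Ribosomal protein genes took 4.46% of counts in the sorted library, against 8.95% in the basal class and 9.91% in all cells of the total epithelial library. The genes listed as amino acid carriers summed to 2640 CPM against 1754 in the basal class.

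**Figure D5:**
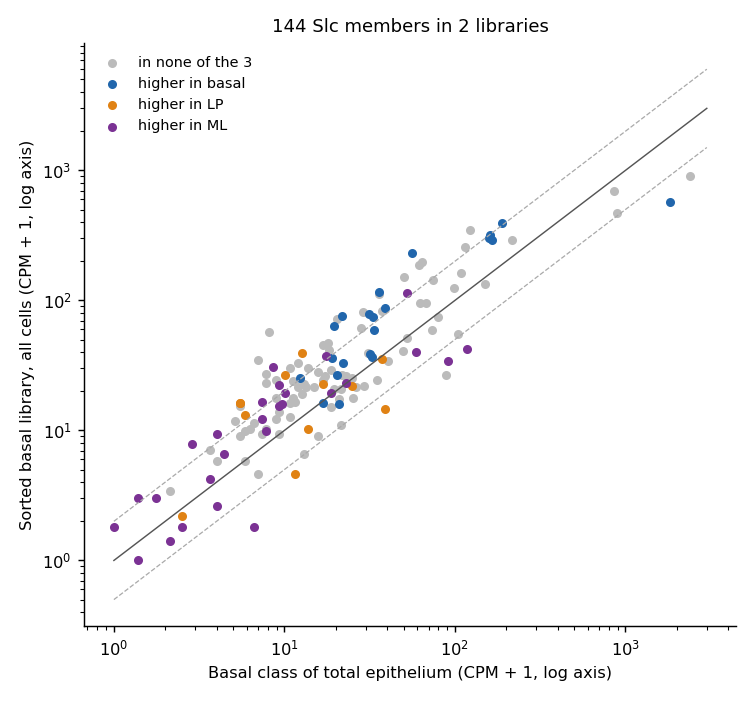
Level of the 144 members in the basal class of total epithelium (x axis) and in the sorted basal library (y axis), both as CPM plus 1 on log scales. The solid line marks equal levels and the dashed lines 2-fold differences, and 80 members lay within 2-fold.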

How the data were processed

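Per the labels, the authors captured 1 sorted basal and 1 total epithelial library and deposited whole-number counts of tagged molecules per gene and cell, not normalized. The submitters' processing notes name Cell Ranger 1.2.1 and mm10, whereas the study's methods name a later Cell Ranger release. The annotation release and the strand setting of counting are not given in the sources used here. Cells were taken as deposited, with 802 to 12967 counts per cell in total epithelium and 137 to 1946 in sorted basal cells. No doublet caller was run. Cells meeting both the basal and the ML rule were set apart, and a run without the 5% highest totals of each class was an alternative.

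Counts were summed by class and divided by the class total. Poisson intervals, conditional binomial intervals of ratios and binomial intervals were computed with scipy 1.17.1, numpy 2.4.6 and pandas 2.3.3 in Python 3.11.15, and figures were drawn with matplotlib 3.10.9. TMM factors came from edgeR 4.0.16 in R 4.3.3. A class at 0 was set to 3 counts in ratios. The calling rule and its intervals were tested on simulated class sums that held counting error only. With no spread between cells in them, these sums cannot show how the rule does for genes held by few cells. The members and lists were chosen with earlier results of these data known, and class differences are descriptions, since the members were chosen on values of the same cells.

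Named were the 8 members per class with the largest ratio to the next class, the most abundant and most even members, those next to the count minimum, the largest of each family and the carriers with obligate partners. One member that this rule names is not reported here. Promoters were those of the first 2 such members per class with a usable window. Slc2a4 had no window, and that of Slc1a1 was passed over, after values were seen, because it reached into the annotated gene. A window was found for 109 of 144 members (75.7%), too few for a comparison of CG content between classes, which is therefore void. Gene overlaps came from the GENCODE annotation of GRCm38. Exons of 43 members overlapped a gene on the opposite strand and those of 8 a gene on the same strand. Among the 24 members with the largest class ratios, 10 had an overlap and 0 of these lay on the same strand.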

Additional observations from a re-analysis of the deposited data

How the results depend on the processing

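The members higher in a class numbered 21 in basal, 12 in LP cells and 27 in ML cells. With counts per cell in place of CPM they numbered 13 in basal and 42 in ML cells. That scaling moved the median log2 ratio of all genes from -0.05 to -0.87 for basal over ML. For LP over ML it moved from -0.26 to -0.63. With a minimum of 100 counts, which fewer members meet, 12 were higher in basal cells. With a 3-fold limit 7 were higher in LP cells and 15 in ML cells. The sorted library lay within 1.5-fold of the basal class for 48 members and within 2-fold for 80. The share of all genes was not computed at 1.5-fold or under the other changed settings. Ratios of the summed level sat close to 1 and changed side. Basal over LP was 1.10, and 1.08 without cells holding stromal marker counts, 0.963 with TMM factors and 0.808 as counts per cell. Basal over ML was 1.01, and 0.981 without the stromal marker cells, 0.986 without mitochondrial and ribosomal genes, 0.571 as counts per cell and 0.990 as a mean over cells. LP over ML was 0.916, and 1.04 with TMM factors, 0.707 as counts per cell and 0.896 as a mean over cells. TMM factors moved the median log2 ratio of all genes from 0.18 to -0.01 for basal over LP and from -0.26 to -0.07 for LP over ML. The ratios of all 24 members with the largest class ratios stayed at 2 or more in all 12 alternatives that changed cells or scaling. Their size moved. Without LP cells holding ML or basal rule counts, the ratio of Slc5a5 went from 19.6 to 41.7, of Slc5a6 from 15.1 to 24.97, of Slc12a2 from 7.33 to 15.8 and of Slc25a35 from 6.83 to 16.1. Slc2a4, with 2 counts in each luminal class, ranged from 14.3 to 125. As counts per cell, Slc6a6 went from 8.14 to 4.62 and Slc1a5 from 4.96 to 2.82, and as a mean over cells Slc1a1 from 10.9 to 18.2. Leaving out cells with collagen counts was added after seeing the data. No paired analysis was possible because each sort had 1 library, the labels carry no replicate numbers and no result came from a test. For the same reason no library could be left out in turn. Depth limits genes near 3 counts per class, which are 1.13 CPM in basal, 1.39 in LP cells and 0.726 in ML cells.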

Other observations

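Carriers whose symbols do not follow the Slc pattern were listed beside the members, in 17 genes of the Slco, Mfsd, Sfxn and Mpc families with 50 or more counts. Of these, 2 were at least 2-fold higher in basal cells, 1 in LP cells and 0 in ML cells, where 12%, 4.1% and 8.29% of all genes were, so that these counts are near the background. Slco3a1, an organic anion carrier, was at 28.7 CPM in basal, 1.39 in LP cells and 4.84 in ML cells, and at 64.7 CPM in the sorted basal library. Slco1a5, of the same family, was at 1.51 CPM in basal, 27.3 in LP cells and 4.60 in ML cells. Mfsd2a, a lysophospholipid carrier, was at 30.5, 8.80 and 13.1 CPM. Mpc2, a subunit of the mitochondrial pyruvate carrier, was even, at 138, 157 and 161 CPM. These 4 genes were chosen after their values were seen.

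The 97 cells that met no class rule had a median of 1184 counts and held 8489 CPM of the 6 fibroblast markers. Markers of other types were present too, at 5838 CPM for basal, 2525 for pericyte, 1238 for ML and 1038 for LP cells. Glial markers stood at 750 CPM and endothelial markers at 650 CPM. The types of these 97 cells were not told apart. In these cells the members summed to 10120 CPM and those higher in ML cells to 406. Those higher in basal cells summed to 4194 CPM, of which Slc25a4 was 3544. The other 20 summed to 650.1 CPM, against 1096 in the basal class. The 26 cells that met both the basal and the ML rule had a median of 4609 counts. In them the members higher in basal cells summed to 1656 CPM and those higher in ML cells to 2186 CPM.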
